A study of Mus musculus with 6 samples.

Results

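Interferon-stimulated genes were followed in the livers of mice that lacked the mitochondrial enzyme SHMT2 in hepatocytes. The 39 genes were chosen by symbol, and each was matched to 1 Ensembl ID among the 49671 genes of the count table. They comprised 23 type I response genes, 3 of them cytosolic RNA sensors, 8 transcription factors and 8 GTPases that interferon-gamma induces. RNA-seq of whole liver gave read counts for 3 control mice, labelled WT1 to WT3, and 3 knockout mice, labelled KO1 to KO3. All 6 were male C57BL/6J mice, and all received the AMLN diet, a high-fat feed with added fructose and cholesterol, for 18 weeks beginning at the age of 4 weeks. The labels name the controls WT, and the study's methods describe the control strain as SHMT2 fl/fl, with several exons of the gene flanked by loxP sites and no Cre. The KO mice were SHMT2HKO, the same floxed strain crossed to Albumin-Cre to target hepatocytes. The paper proposes that SHMT2 in the non-parenchymal cells of the liver is unaffected, which whole-liver RNA does not show by cell type. Cre was present only in the KO group, and no mice on another diet were among these libraries. The comparison of KO with WT asks how hepatic loss of SHMT2 changed the liver transcriptome on this diet.

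Interferons are secreted when a cell senses viral or misplaced nucleic acid. Type I interferons bind IFNAR1 and IFNAR2, the attached kinases JAK1 and TYK2 phosphorylate STAT proteins, STAT2 among them, and these join IRF9 in a complex that binds the interferon-stimulated response element (ISRE) of genes such as Mx1 and Oas1a. Interferon-gamma, made mainly by T and NK cells, binds a separate receptor, acts on the gamma-activated site (GAS) and strongly induces GTPases that attack membranes around intracellular microbes. Both programs share many targets. In fatty liver disease hepatocytes, Kupffer cells and recruited leukocytes can all carry interferon-stimulated transcripts, and in whole tissue fewer cells of a type cannot be told apart from less RNA per cell.

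The libraries held 23090837 to 34089722 counts on genes. CPM, the usual depth-scaled count, divides each count by library size after TMM scaling, whose factors were 1.13 to 1.21 in WT and 0.802 to 0.984 in KO, and a floor of 3 counts was worth 0.0734 to 0.152 CPM. The targeted gene, Shmt2, was 94.6, 109 and 93.9 CPM in the WT mice and 24.9, 28.3 and 19.3 CPM in the KO mice, a 4.11-fold fall (log2 fold change -2.04 ± 0.16 SE, edgeR adjusted p = 0.000639). Single genes were tested with the quasi-likelihood method of edgeR, their p-values were adjusted by Benjamini and Hochberg's procedure across 16089 genes above a filter on low counts, and all log2 fold changes are KO minus WT, given ± SE.

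Of the 39 interferon-stimulated genes 17 fell and 1 rose in the KO livers, and most that fell were type I response genes, Mx1, Ifi44 and the Oas genes among them, whereas 6 of the 8 interferon-gamma GTPases did not pass the test. All 39 genes passed the filter, with at least 45 counts in every library. The 17 that fell, at an adjusted p under 0.05 in edgeR's test, were 43.6% of the 39, against 16.5% of all genes tested. Irf2 was the 1 gene of the 39 that rose, against 12.5% of all genes tested. Of the type I response genes 13 of 23 fell and none rose, of the GTPases 2 of 8 fell and none rose, and of the transcription factors 2 of 8 fell and 1 rose. The median log2 fold change was -1.05 over the type I response genes, -0.31 over the transcription factors and -0.27 over the GTPases, beside 0.03 over all genes tested. The difference between the type I genes and the GTPases is a description of these lists and was not tested. It was smaller outside the 39 genes, where 5 of 11 further GTPases fell, 45.5%, and 2 rose, 18.2%. Of 37 further type I response genes 20 fell, 54.1%, and 1 rose, 2.70%. Summed markers of T and NK cells were also lower in the KO livers, at 5.47 to 8.62 CPM against 24.6 to 27.4 CPM in WT. So were those of recruited macrophages, at 146 to 372 against 1048 to 1165 CPM, and cholangiocytes, at 128 to 245 against 951 to 1181 CPM. Sums of dendritic cells, B cells and neutrophils were lower too. Those of hepatocytes, macrophages and Kupffer cells, and endothelial cells were higher, and stellate cell sums overlapped. The part of these cell types in the falls was not tested. At an unadjusted p under 0.05, 16 type I genes were lower and none was higher. DESeq2 called 15 type I genes lower and limma-voom 11, without Isg15 and Parp14, and both called none higher. For the GTPases the unadjusted test gave 3 lower and 1 higher, DESeq2 called 2 lower and 1 higher, and limma-voom called 2 lower and none higher. Of all genes DESeq2 called 2879 lower and 2535 higher, and limma-voom called 2792 lower and 1997 higher. The share of all genes at an unadjusted p under 0.05 is not given here.

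**Figure D1:**
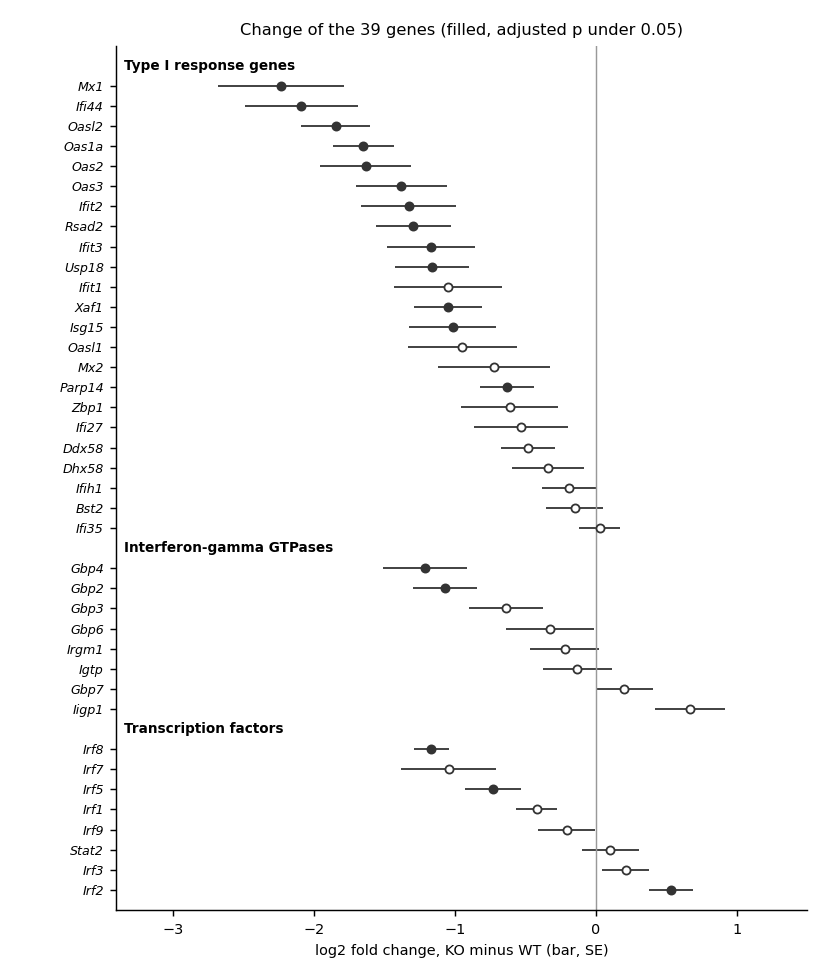
Log2 fold change, KO minus WT, with its standard error (x axis) of each of the 39 genes (y axis), grouped by role. Filled points had an adjusted p under 0.05 in edgeR's test: 13 type I response genes, 2 GTPases and 3 transcription factors, of which Irf2 alone lies to the right of 0.

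Every KO value lay below every WT value for 17 of the 39 genes, 43.6%, against 25.0% of all genes tested. Every KO value lay above every WT value for 1 gene, Irf2, against 21.9% of all genes tested. The type I genes gave 12 of the 17. The counts of lower calls changed when single control mice were left out, among all genes as well. Without WT1 they were 9 of the 39 genes and 7 of the 23 type I genes, beside 1763 of all genes. Without WT3 they were 10 and 8, beside 1621 of all genes. Without WT2 they were 21 and 16, beside 1686 of all genes. With every mouse included, 2651 of all genes were lower. Omitting WT1 or WT3 thus lowered the counts of members and of all genes, whereas omitting WT2 raised only those of members. Ifit2, Ifit3, Isg15, Oas3, Irf2, Irf5, Gbp4 and Parp14 did not pass without WT1 and did not pass without WT3, nor did Xaf1 without WT1. Irf2 also did not pass without WT2 or KO1, Ifit3 without any 1 of the KO mice, Ifit2, Isg15, Irf5 and Parp14 without KO2, and Isg15 and Parp14 without KO3. The other 9 that passed, Usp18, Rsad2, Oas1a, Oas2, Oasl2, Mx1, Ifi44, Irf8 and Gbp2, did so under all 16 alternatives run. Scaling also moved the counts, since 30 members were lower and none higher when library size was used without TMM, a setting in which 4923 of all genes were lower and 539 higher, beside 2651 lower and 2012 higher with TMM. With scaling to the ERCC spike-in RNAs, 23 members were lower and none higher, and 2759 of all genes were lower and 107 higher. Those scalings shifted the median log2 fold change of all genes by -0.42 and -0.72, and the values in this report are relative to TMM.

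Promoters show which of these genes carry the ISRE core close to their start. The core was searched on both strands as GAAA, 2 free bases and GAAA, in the 300 bases from 250 before to 50 after each start in RefSeq (GRCm38.p6). It was present in 16 of the 28 members with an entry, 57.1%, against 3.99% of 27025 genes. The GAS core, TTC, 3 free bases and GAA, was present in 9 of the 28, 32.1%, against 9.55% of genes, and overlapped an ISRE core in Bst2. The ISRE core was in the window of 9 of 15 type I genes, 5 of 5 GTPases and 2 of 8 transcription factors. Of the members that fell, 6 of 12 with an entry had the core, and of those that did not pass the test 9 of 15 had it. The stretches from 160 bases before the start up to the start are given for 4 genes that fell and 3 that did not pass the test, with the ISRE cores in capitals:
Isg15 (chr4:156200819-156200978, minus strand): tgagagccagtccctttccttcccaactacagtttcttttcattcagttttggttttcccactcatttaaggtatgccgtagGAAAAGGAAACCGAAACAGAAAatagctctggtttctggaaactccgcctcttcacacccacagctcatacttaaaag
Rsad2 (chr12:26456453-26456612, minus strand): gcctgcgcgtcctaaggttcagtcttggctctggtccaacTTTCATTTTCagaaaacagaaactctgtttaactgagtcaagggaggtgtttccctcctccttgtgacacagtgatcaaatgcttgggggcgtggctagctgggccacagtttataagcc
Oas1a (chr5:120907526-120907685, minus strand): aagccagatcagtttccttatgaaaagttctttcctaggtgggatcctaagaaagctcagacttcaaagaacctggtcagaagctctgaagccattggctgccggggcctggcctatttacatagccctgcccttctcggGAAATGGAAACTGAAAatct
Gbp2 (chr3:142620503-142620662, plus strand): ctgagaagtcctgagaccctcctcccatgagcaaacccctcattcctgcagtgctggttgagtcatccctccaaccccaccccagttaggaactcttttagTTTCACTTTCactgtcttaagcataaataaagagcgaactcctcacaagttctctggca
Bst2 (chr8:71537473-71537632, minus strand): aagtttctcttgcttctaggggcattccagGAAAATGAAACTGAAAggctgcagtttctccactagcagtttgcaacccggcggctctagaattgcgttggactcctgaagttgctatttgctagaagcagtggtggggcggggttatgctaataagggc
Irgm1 (chr11:48871421-48871580, minus strand): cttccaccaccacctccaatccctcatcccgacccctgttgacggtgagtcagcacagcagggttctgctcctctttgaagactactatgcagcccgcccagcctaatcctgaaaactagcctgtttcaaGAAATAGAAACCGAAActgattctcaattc
Gbp7 (chr3:142530176-142530335, plus strand): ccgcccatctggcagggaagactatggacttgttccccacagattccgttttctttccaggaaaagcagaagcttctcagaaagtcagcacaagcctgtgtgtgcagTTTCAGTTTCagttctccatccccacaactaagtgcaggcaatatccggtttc
The lower-case rest is the reference sequence on the strand of the gene, 5′ to 3′. In Isg15 3 cores overlap in 1 run that begins 78 bases before the start, and in Oas1a 2 overlap from 20 bases before it. Bst2 and Irgm1 also have 2 overlapping cores, beginning 130 and 30 bases before the start, although neither gene passed the test. Gbp2 and Gbp7, of the same locus on chromosome 3, each have a single core in the TTTC orientation at 59 and 53 bases before the start. Oasl2, Ifi44, Xaf1 and Irf5 fell and had no match to either core in the window. Usp18, Oas2, Mx1, Mx2, Ifi27, Dhx58, Gbp4, Gbp6, Iigp1, Zbp1 and Parp14 had no entry in the table.

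The Ifit genes encode RNA-binding proteins that block translation of viral RNA and lie together on chromosome 19 (chr19:34550694-34650009, GRCm38). Ifit2 was 28.8, 16.5 and 25.0 CPM in WT1, WT2 and WT3 and 5.35, 9.12 and 13.6 CPM in KO1, KO2 and KO3. Ifit3 was 59.7, 23.2 and 54.8 CPM in WT1, WT2 and WT3 and 20.5, 20.9 and 20.0 CPM in KO1, KO2 and KO3. Ifit1 was 28.6, 8.58 and 18.3 CPM in WT1, WT2 and WT3 and 9.25, 10.1 and 7.60 CPM in KO1, KO2 and KO3. The groups did not overlap for Ifit2 and Ifit3, whereas for Ifit1 the value of WT2 lay within the KO range. Ifit2 fell 2.51-fold (log2 fold change -1.33 ± 0.34, edgeR adjusted p = 0.0222) and Ifit3 fell 2.25-fold (-1.17 ± 0.31, edgeR adjusted p = 0.0269). Ifit1, at -1.05 ± 0.38, did not pass (edgeR adjusted p = 0.0735). Reads could be shared in this family: 31.7% of the 100-base words in Ifit3 transcripts also occur in Ifit3b, and counting of unique hits leaves out reads that fit both genes. The study's paired reads were longer than these words, here and for the genes below. The share of reads left out may therefore be lower than the share of words. Within the locus, 4 of 5 listed genes fell, with Ifit3b and Ifit1bl1 beside Ifit2 and Ifit3, against 16.5% of all genes tested. Ifit3b did not pass without WT1, WT3, KO2 or KO3, and Ifit1bl1 without WT1, WT3 or KO2, when 1 mouse was left out.

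The 2'-5'-oligoadenylate synthetases make the messenger that activates RNase L against viral RNA, and every listed gene of their main locus fell. Oas1a was 30.9, 16.8 and 24.9 CPM in WT1, WT2 and WT3 and 7.55, 7.65 and 7.99 CPM in KO1, KO2 and KO3. Oas2 was 30.7, 14.5 and 23.1 CPM in WT1, WT2 and WT3 and 4.75, 9.07 and 8.27 CPM in KO1, KO2 and KO3. Oas3 was 16.4, 8.77 and 12.1 CPM in WT1, WT2 and WT3 and 2.89, 5.32 and 6.14 CPM in KO1, KO2 and KO3. For all 3 genes every KO mouse lay below every WT mouse, and Oas1a differed by little among the KO mice but widely among the WT mice. Oas1a fell 3.13-fold (log2 fold change -1.65 ± 0.22, edgeR adjusted p = 0.002), Oas2 fell 3.10-fold (-1.63 ± 0.32, edgeR adjusted p = 0.00849) and Oas3 fell 2.60-fold (-1.38 ± 0.32, edgeR adjusted p = 0.0155). All 6 listed genes of the locus at chr5:120730333-120907521, Oas1b, Oas1c and Oas1g included, passed the test downward, against 16.5% of all genes tested. Oas1b did not pass without WT1 or WT3. Oas1a shares 40.9% of its 100-base words with Oas1g, and reads that fit both genes are left out of both counts. The synthetase-like genes Oasl1 and Oasl2 lie side by side at chr5:114896936-114937915, and both encode proteins related to the synthetases. Oasl2 was 69.7, 47.1 and 59.2 CPM in WT1, WT2 and WT3 and 10.8, 18.8 and 19.3 CPM in KO1, KO2 and KO3, with no overlap. It fell 3.59-fold (log2 fold change -1.85 ± 0.24, edgeR adjusted p = 0.00198). Oasl1 was 44.7, 14.2 and 31.6 CPM in WT1, WT2 and WT3 and 15.4, 19.8 and 12.01 CPM in KO1, KO2 and KO3, with WT2 among the KO values, and did not pass (-0.95 ± 0.39, edgeR adjusted p = 0.106).

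The falls of highest fold among the 39 genes were in Mx1 and Ifi44. Mx1, a dynamin-like GTPase that traps viral nucleocapsids, was 15.9, 4.48 and 13.8 CPM in WT1, WT2 and WT3 and 2.04, 2.28 and 2.95 CPM in KO1, KO2 and KO3. Ifi44, an interferon-induced protein, was 27.2, 9.59 and 16.7 CPM in WT1, WT2 and WT3 and 2.84, 4.15 and 5.59 CPM in KO1, KO2 and KO3. In both genes WT2 was the lowest control and still lay above every KO mouse. Mx1 fell 4.70-fold (log2 fold change -2.23 ± 0.45, edgeR adjusted p = 0.00919) and Ifi44 fell 4.25-fold (-2.09 ± 0.40, edgeR adjusted p = 0.00764). Mx2, the neighbour of Mx1 on chromosome 16, was 15.9, 5.19 and 9.76 CPM in WT1, WT2 and WT3 and 7.64, 6.94 and 4.25 CPM in KO1, KO2 and KO3, the groups overlapped, and it did not pass (log2 fold change -0.72 ± 0.40, edgeR adjusted p = 0.21).

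Genes of the ISG15 pathway and 3 further effectors also fell. Isg15, a ubiquitin-like modifier, was 25.5, 11.0 and 20.8 CPM in WT1, WT2 and WT3 and 11.2, 10.1 and 7.12 CPM in KO1, KO2 and KO3. Usp18, the protease that removes ISG15 and restrains type I receptor signalling, was 56.9, 29.5 and 38.1 CPM in WT1, WT2 and WT3 and 14.5, 23.1 and 18.2 CPM in KO1, KO2 and KO3. Rsad2, which encodes viperin, a maker of a chain-terminating nucleotide, was 40.7, 18.1 and 31.9 CPM in WT1, WT2 and WT3 and 12.5, 11.6 and 12.9 CPM in KO1, KO2 and KO3. Usp18 and Rsad2 did not overlap between groups, whereas WT2 lay just below KO1 for Isg15. Isg15 fell 2.02-fold (log2 fold change -1.01 ± 0.31, edgeR adjusted p = 0.0415), Usp18 fell 2.23-fold (-1.16 ± 0.26, edgeR adjusted p = 0.0144) and Rsad2 fell 2.45-fold (-1.29 ± 0.27, edgeR adjusted p = 0.00986). Xaf1, which binds the apoptosis inhibitor XIAP, was 27.4, 14.3 and 19.7 CPM in WT1, WT2 and WT3 and 10.5, 11.0 and 8.23 CPM in KO1, KO2 and KO3. Parp14, an ADP-ribosyltransferase, was 77.1, 44.5 and 65.7 CPM in WT1, WT2 and WT3 and 42.5, 40.7 and 37.8 CPM in KO1, KO2 and KO3. Neither overlapped between groups, and WT2 was nearest to the KO mice in both. Xaf1 fell 2.07-fold (log2 fold change -1.05 ± 0.24, edgeR adjusted p = 0.0152), and Parp14 fell 1.55-fold (-0.63 ± 0.19, edgeR adjusted p = 0.0396), the smallest fold among the type I genes that passed.

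**Figure D2:**
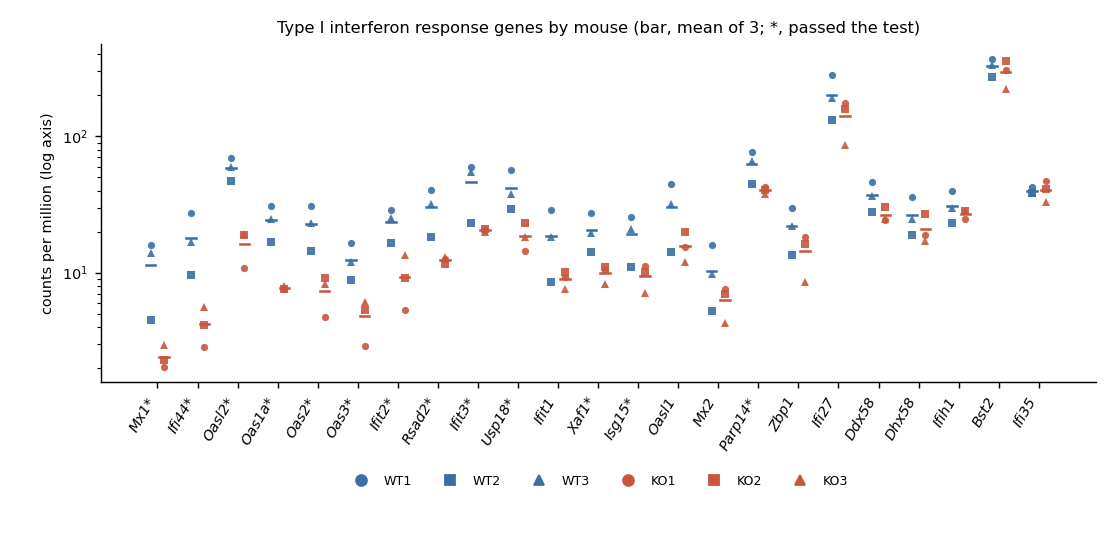
CPM on a log axis (y) of the 23 type I response genes (x) in each mouse, ordered by log2 fold change, with a bar at the mean of 3 mice and an asterisk for genes that passed the test. WT1 (blue circles) was the highest and WT2 (blue squares) the lowest control in all 23 genes, and at the left end Mx1 fell from a WT mean of 11.4 to a KO mean of 2.42 CPM.

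The type I response genes that did not pass the test included those at the highest levels. Per kilobase of exon Bst2, which encodes tetherin, a protein that holds budding virus at the cell surface, was the highest of the 39 genes, at 361 CPM per kb in WT and 326 in KO. Bst2 was 369, 273 and 336 CPM in WT1, WT2 and WT3 and 305, 355 and 223 CPM in KO1, KO2 and KO3, and the groups overlapped (log2 fold change -0.15 ± 0.20, edgeR adjusted p = 0.62). Ifi27 followed, at 138 CPM per kb in WT and 95.6 in KO, with a log2 fold change of -0.53 ± 0.33 (edgeR adjusted p = 0.272). Ifi35 was nearly level, at 39.6 ± 2.52 CPM in WT and 40.4 ± 6.91 CPM in KO (SD, n = 3), a log2 fold change of 0.03 ± 0.14, and it turned to -0.41 without TMM. Zbp1, a sensor of Z-form nucleic acid that can start necroptosis, had a log2 fold change of -0.61 ± 0.34 (edgeR adjusted p = 0.221). None of the 3 cytosolic RNA sensors passed. Ddx58, which encodes RIG-I, was 46.4, 28.1 and 36.2 CPM in WT1, WT2 and WT3 and 24.4, 30.4 and 24.6 CPM in KO1, KO2 and KO3, with KO2 above WT2 (log2 fold change -0.48 ± 0.19, edgeR adjusted p = 0.0928). Dhx58, which encodes LGP2 and at 8.11 CPM per kb in WT was the highest of the 3 sensors, was 35.7, 19.0 and 24.9 CPM in WT1, WT2 and WT3 and 19.0, 27.1 and 17.1 CPM in KO1, KO2 and KO3, and it did not pass (-0.34 ± 0.26, edgeR adjusted p = 0.36). Ifih1, which encodes MDA5, averaged 30.8 ± 8.45 CPM in WT and 27.0 ± 2.15 CPM in KO (SD, n = 3), a log2 fold change of -0.19 ± 0.19. DESeq2 and limma-voom called none of the sensors, and at an unadjusted p under 0.05 1 of them was lower.

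Among the transcription factors Irf8 and Irf5 fell, Irf2 rose, and Irf9 and Stat2, whose products bind the ISRE in one complex, did not pass. Irf8, a factor of monocytes, dendritic cells and B cells, was 44.9, 42.9 and 48.9 CPM in WT1, WT2 and WT3 and 18.4, 19.9 and 22.6 CPM in KO1, KO2 and KO3. Irf5, which drives inflammatory cytokines in macrophages, was 24.9, 20.1 and 27.6 CPM in WT1, WT2 and WT3 and 18.8, 12.4 and 12.8 CPM in KO1, KO2 and KO3. Both genes had all KO mice below all WT mice, and Irf8 varied little within either group. Irf8 fell 2.24-fold (log2 fold change -1.17 ± 0.12, edgeR adjusted p = 0.00111), the lowest adjusted p of the 39 genes, and Irf5 fell 1.65-fold (-0.73 ± 0.20, edgeR adjusted p = 0.027). Irf2, which competes with IRF1 for the same sites, was 62.3, 54.6 and 57.7 CPM in WT1, WT2 and WT3 and 102, 68.2 and 83.3 CPM in KO1, KO2 and KO3, with every KO mouse above every WT mouse. Irf2 rose 1.45-fold (log2 fold change 0.54 ± 0.16, edgeR adjusted p = 0.0352), but its sign turned to -0.20 with ERCC scaling. Irf7, the main amplifier of type I interferon and itself interferon-induced, was 149, 60.3 and 117 CPM in WT1, WT2 and WT3 and 51.9, 68.7 and 38.4 CPM in KO1, KO2 and KO3, and WT2 lay below KO2. Its log2 fold change of -1.04 ± 0.34 narrowly missed the threshold (edgeR adjusted p = 0.0524). Irf1, which interferon-gamma induces strongly, was 56.2, 58.6 and 61.9 CPM in WT1, WT2 and WT3 and 46.8, 50.3 and 35.1 CPM in KO1, KO2 and KO3, without overlap, and did not pass (-0.42 ± 0.15, edgeR adjusted p = 0.0652). Irf9 and Stat2 had log2 fold changes of -0.20 ± 0.20 and 0.10 ± 0.20. Irf3, which is activated by phosphorylation rather than by induction, was 69.2, 68.6 and 70.1 CPM in WT1, WT2 and WT3 and 99.99, 77.4 and 63.4 CPM in KO1, KO2 and KO3 (0.21 ± 0.17, edgeR adjusted p = 0.376). Beside the fall of Irf8, summed markers of conventional dendritic cells were 21.9 to 24.6 CPM in WT and 13.3 to 18.9 CPM in KO, and their part in it was not tested. Exons of Irf9 overlap those of Rnf31 on the same strand, and exons of Irf1, Irf3, Irf5 and Irf7, like those of Ifi35, Usp18, Dhx58 and Oasl1, overlap genes of the opposite strand.

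Of the 8 interferon-gamma GTPases among the 39 genes only Gbp2 and Gbp4 passed the test. Guanylate-binding proteins coat and rupture pathogen vacuoles. Gbp2 was 12.9, 14.3 and 13.9 CPM in WT1, WT2 and WT3 and 4.41, 8.36 and 6.89 CPM in KO1, KO2 and KO3. Gbp4 was 9.59, 6.51 and 7.83 CPM in WT1, WT2 and WT3 and 2.08, 4.51 and 3.78 CPM in KO1, KO2 and KO3. Every KO mouse lay below every WT mouse for both. Gbp2 fell 2.10-fold (log2 fold change -1.07 ± 0.23, edgeR adjusted p = 0.0109) and Gbp4 fell 2.32-fold (-1.21 ± 0.30, edgeR adjusted p = 0.0192). In contrast, Gbp3 was 24.3, 12.2 and 16.8 CPM in WT1, WT2 and WT3 and 9.34, 14.2 and 10.9 CPM in KO1, KO2 and KO3, with an overlap at KO2 (log2 fold change -0.63 ± 0.26, edgeR adjusted p = 0.106). Gbp7 was 16.6, 10.8 and 12.9 CPM in WT1, WT2 and WT3 and 16.7, 17.4 and 12.3 CPM in KO1, KO2 and KO3, and its ranges lay over each other (0.20 ± 0.20, edgeR adjusted p = 0.494). Gbp6 was 13.0, 6.32 and 8.69 CPM in WT1, WT2 and WT3 and 8.62, 8.91 and 4.96 CPM in KO1, KO2 and KO3 (-0.32 ± 0.31, edgeR adjusted p = 0.477), and 64.5% of its 100-base words also occur in other genes, mainly Gm43302 and Gbp10, so its count is uncertain.

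The immunity-related GTPases, which act on the membrane of pathogen vacuoles and on autophagy, did not pass the test among the 39 genes. Igtp was 47.7, 32.0 and 35.9 CPM in WT1, WT2 and WT3 and 37.9, 44.7 and 23.3 CPM in KO1, KO2 and KO3 (log2 fold change -0.13 ± 0.25, edgeR adjusted p = 0.728). Irgm1, a regulator of the other family members, was 79.6, 39.4 and 55.5 CPM in WT1, WT2 and WT3 and 51.7, 56.7 and 41.8 CPM in KO1, KO2 and KO3 (-0.22 ± 0.24, edgeR adjusted p = 0.542). Both had WT1 highest and overlapping groups. Iigp1, an effector recruited to parasite vacuoles, was 243, 135 and 145 CPM in WT1, WT2 and WT3 and 326, 282 and 224 CPM in KO1, KO2 and KO3. KO1 and KO2 lay above all controls and KO3 lay below WT1. Iigp1 had the highest log2 fold change of the 39 genes, 0.67 ± 0.25, a 1.59-fold difference that did not pass (edgeR adjusted p = 0.0761), and its sign turned to -0.16 with ERCC scaling. Without WT1 this gene passed, as the 1 GTPase called higher, and DESeq2 also called it higher, while the sign of the median over the GTPases turned from -0.27 to 0.02.

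**Figure D3:**
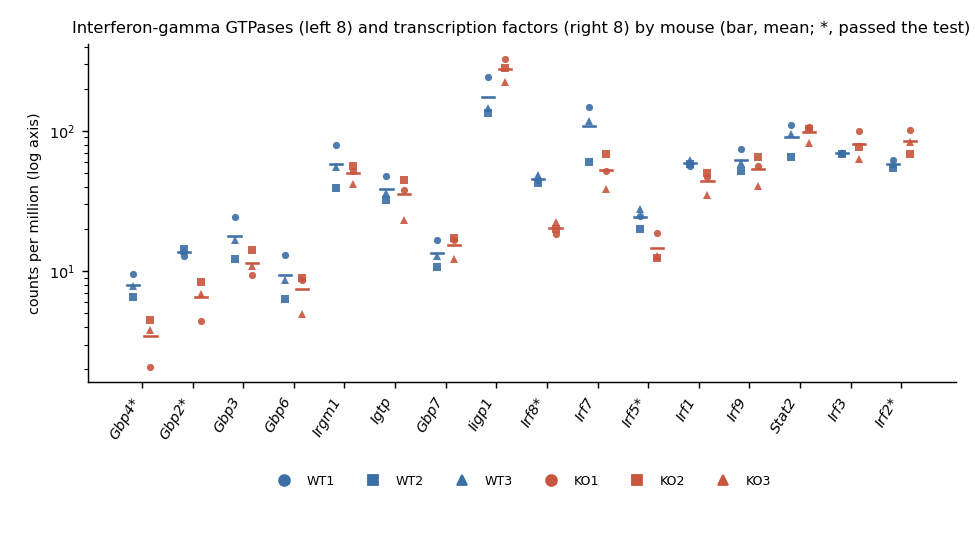
CPM on a log axis (y) of the 8 interferon-gamma GTPases and the 8 transcription factors (x) in each mouse, with a bar at the mean of 3 mice and an asterisk for genes that passed the test. Gbp4, Gbp2, Irf8 and Irf5 have all KO mice below all WT mice, as has Irf1, which did not pass the test. Irf2 has them above, and Iigp1 has a KO mean of 278 against 174 CPM in WT with 1 KO mouse inside the WT range.

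Further GTPases of both families, listed beside the 39 genes, included both genes that fell and genes that rose. Of 11 tested, 5 fell, 45.5%, and 2 rose, 18.2%, against 16.5% and 12.5% of all genes tested, so that with the members 7 of 19 fell, 2 rose and 10 did not pass. Tgtp1 fell 3.60-fold (log2 fold change -1.85 ± 0.25, edgeR adjusted p = 0.00219) and Tgtp2 fell 2.93-fold (-1.55 ± 0.25, edgeR adjusted p = 0.00366), but 73.1% and 76.8% of their 100-base words occur in other genes, chiefly in each other. Gvin1, a very large inducible GTPase, fell 2.94-fold (-1.55 ± 0.36, edgeR adjusted p = 0.0148), with 97.8% of its words in related genes. Gbp2b, which was close to the floor in controls, was 0.245, 0.226 and 0.130 CPM in WT1, WT2 and WT3 and 1.49, 2.28 and 0.551 CPM in KO1, KO2 and KO3. It rose 7.03-fold (log2 fold change 2.81 ± 0.59, edgeR adjusted p = 0.0103), as 1 of the 2 counted as rising, and every KO mouse lay above every WT mouse. Its counts were 10, 6 and 5 in the WT libraries and 35, 45 and 14 in the KO libraries. The KO libraries alone carried Gbp2b past the filter, so its call and the separation of its groups are no independent support for a rise. Gbp11 was 6.73, 2.97 and 6.47 CPM in WT1, WT2 and WT3 and 39.5, 12.8 and 14.3 CPM in KO1, KO2 and KO3 and rose 4.08-fold (2.03 ± 0.51, edgeR adjusted p = 0.0241), with KO1 far above the other KO mice. In the Gbp locus of chromosome 3 (chr3:142493978-142638008) Gbp2 fell and the adjacent Gbp2b rose, while Gbp3, Gbp5 and Gbp7 did not pass. In the locus of chromosome 5 (chr5:105014150-105346472) Gbp4, Gbp8 and Gbp9, whose exons overlap on the same strand, fell, Gbp11 rose, and Gbp6 and Gbp10 did not pass. Gbp8, at -1.34 ± 0.39, Gbp9, at -1.40 ± 0.25, and Gbp10, at 1.17 ± 0.42, were named after their values were seen. Gvin1 did not pass without WT1, Gbp2b without WT3, Gbp11 without any 1 of the WT mice, nor Gbp8 without any 1 of the WT mice or KO2.

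**Figure D4:**
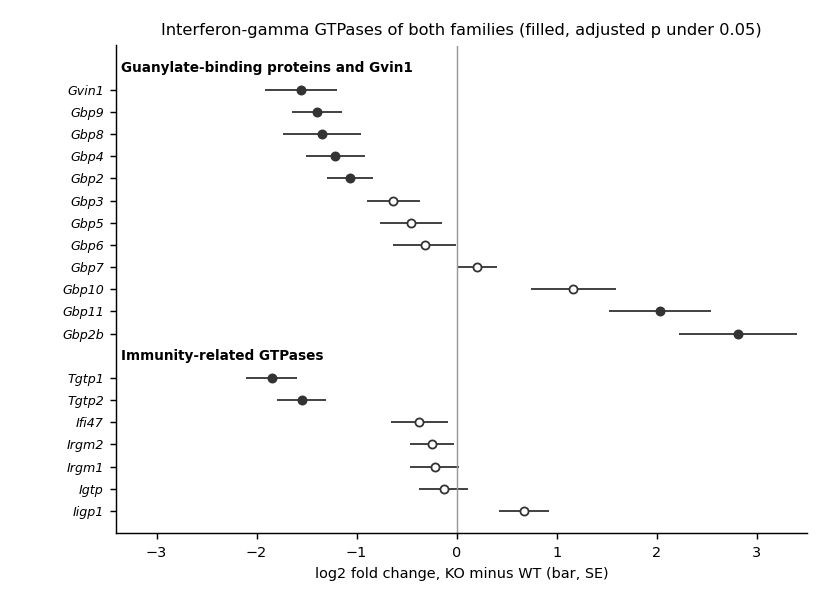
Log2 fold change, KO minus WT, with its standard error (x axis) of 19 GTPases of both families (y axis), members and further genes together. Filled points had an adjusted p under 0.05 in edgeR's test: 7 lie left of 0, from Tgtp1 at -1.85 to Gbp2 at -1.07, and Gbp11 and Gbp2b lie right of it at 2.03 and 2.81. Gbp2b passed the filter through its KO libraries alone.

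The WT mice kept the same order across the type I genes. WT1 exceeded WT3 and WT3 exceeded WT2 in 23 of 23 type I genes and 7 of 8 GTPases, against 4 of 8 transcription factors and 21.1% of all genes tested. Relative to the WT mean of each gene, the median log2 level over the type I genes was 0.50 in WT1, -0.48 in WT2 and 0.07 in WT3, and -0.83, -0.79 and -1.13 in KO1, KO2 and KO3. WT2 was therefore the nearest control to the KO mice but lay above all of them. For the GTPases the same medians were 0.42, -0.31 and -0.03 in the WT mice and -0.08, 0.01 and -0.68 in the KO mice, so that KO1 and KO2 lay inside the WT range and KO3 below it. Among the controls the highest value of a type I gene was a median of 1.93 times the lowest, against 1.24 for all genes tested, and among the KO mice 1.58 against 1.46. These members share their libraries, and their common order is no replicate of the comparison.

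The ligands were hardly detected. None of 11 interferon genes passed the filter: Ifng had 2, 6 and 3 counts in the WT libraries and 4, 4 and 3 in the KO libraries, Ifnb1 had 1 count in WT1 and none elsewhere, and the alpha and lambda genes of the list had none. At this depth a difference in ligand RNA was not detectable. Of 10 receptor and kinase genes 4 fell and none rose, against 16.5% lower and 12.5% higher of all genes tested. Ifnlr1, the receptor chain specific to interferon-lambda, was 2.89, 4.85 and 2.84 CPM in the WT mice and 0.976, 0.861 and 1.38 CPM in the KO mice and fell 3.25-fold (log2 fold change -1.70 ± 0.33, edgeR adjusted p = 0.00792). Its partner Il10rb, which is shared with the interleukin-10 receptor, fell 2.05-fold (-1.04 ± 0.19, edgeR adjusted p = 0.00567). The interferon-gamma receptor chain Ifngr1 was 43.5, 58.4 and 56.1 CPM in the WT mice and 21.1, 21.3 and 33.5 CPM in the KO mice and fell 2.08-fold (-1.06 ± 0.21, edgeR adjusted p = 0.00803), and Ifngr2 fell 1.33-fold (-0.41 ± 0.11, edgeR adjusted p = 0.028), which did not pass without any 1 of the WT mice, KO1 or KO2. The type I receptor chains did not pass: Ifnar1 had a log2 fold change of -0.19 ± 0.12 and Ifnar2 of 0.33 ± 0.13.

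Genes of nucleic acid sensing, upstream of interferon, fell in part. Of 14 genes 6 fell, 42.9%, and 1 rose, 7.14%, against 16.5% and 12.5% of all genes tested. Tmem173, which encodes STING, was 15.4, 16.4 and 16.4 CPM in the WT mice and 3.31, 5.67 and 5.35 CPM in the KO mice and fell 3.37-fold (log2 fold change -1.75 ± 0.21, edgeR adjusted p = 0.00149). Mb21d1, which encodes the DNA sensor cGAS, fell 2.18-fold (-1.13 ± 0.28, edgeR adjusted p = 0.0193). The endosomal RNA receptor Tlr7 fell 2.51-fold (-1.33 ± 0.41, edgeR adjusted p = 0.0417), and the DNA-binding proteins Ifi204 and Aim2 fell 1.93-fold and 1.80-fold. Mavs, the mitochondrial adaptor of the RNA sensors, was 53.5, 64.0 and 66.6 CPM in the WT mice and 92.6, 104 and 99.2 CPM in the KO mice. Mavs rose 1.61-fold (0.68 ± 0.13, edgeR adjusted p = 0.00622), but with ERCC scaling its log2 fold change was -0.01. It was named after its values were seen, as the 1 gene of this list that rose. Among 14 tested genes that restrain interferon signalling 4 fell, 28.6%, and 1 rose, 7.14%, against the same shares of all genes. Socs1, a feedback inhibitor of the receptor kinases, was 3.06, 2.48 and 2.92 CPM in the WT mice and 1.19, 0.912 and 1.02 CPM in the KO mice and fell 2.70-fold (-1.43 ± 0.26, edgeR adjusted p = 0.00634). Nlrc3, an inhibitor of STING signalling, fell 3.48-fold (-1.80 ± 0.38), the nucleotide hydrolase Samhd1 1.5-fold (-0.58 ± 0.11) and the RNA-editing enzyme Adar 1.44-fold (-0.53 ± 0.16). Nlrc3 had 21, 8 and 13 counts in the KO libraries and passed the filter through its WT libraries. Rnaseh2c, a subunit of RNase H2, rose 1.83-fold (0.87 ± 0.22, edgeR adjusted p = 0.0201). Trex1 was listed at 0 counts in all libraries, and its exons overlap those of Atrip on the same strand. With 1 mouse left out, Nlrc3 did not pass without WT1, Mb21d1 without any 1 of the WT mice, Ifi204 without WT1, WT3 or KO2, Tlr7 and Rnaseh2c without any 1 of the WT mice or KO2, and Aim2 and Adar without any 1 mouse but WT2.

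Type I response genes outside the 39 fell too. Of 37 tested, 20 fell, 54.1%, and 1 rose, 2.70%, against 16.5% and 12.5% of all genes tested, and with the members 33 of 60 fell. Oas1g fell 3.97-fold (log2 fold change -1.99 ± 0.37, edgeR adjusted p = 0.00642) and Ifit1bl1, close to the floor in the KO mice, fell 3.74-fold (-1.90 ± 0.50, edgeR adjusted p = 0.0237). Ifit1bl1 had 3, 8 and 10 counts in the KO libraries and passed the filter through its WT libraries. Phf11d was 21.6, 11.5 and 18.9 CPM in the WT mice and 5.43, 5.47 and 5.67 CPM in the KO mice, Epsti1 was 14.6, 13.7 and 14.1 CPM in the WT mice and 4.24, 4.15 and 6.18 CPM in the KO mice, and Ifi27l2a was 23.9, 17.2 and 20.6 CPM in the WT mice and 6.54, 8.66 and 5.86 CPM in the KO mice. All 3 were without overlap and fell 3.14-fold, 2.91-fold and 2.94-fold. Epsti1 and Ifi27l2a, unlike most type I members, differed by little among the controls. Dtx3l, a ubiquitin ligase that works with PARP9, was the 1 gene that rose (0.48 ± 0.13, edgeR adjusted p = 0.0277), turned to -0.27 with ERCC scaling, and was named after its values were seen. Of 16 tested genes of interferon-gamma antigen processing and chemokines 4 fell, 25.0%, and none rose, against the same shares of all genes. Cd74, the invariant chain of MHC class II, was 720.0, 969 and 880.0 CPM in the WT mice and 142, 196 and 310.4 CPM in the KO mice and fell 3.96-fold (-1.99 ± 0.29, edgeR adjusted p = 0.00269). Ciita, the transactivator of MHC class II, fell 2.42-fold (-1.28 ± 0.25, edgeR adjusted p = 0.00837), Tap2, a peptide transporter chain, fell 1.27-fold (-0.35 ± 0.11, edgeR adjusted p = 0.04996), and Socs1 belongs to this list too. With 1 mouse left out, Dtx3l did not pass without WT2, WT3 or KO2, and Tap2 without any 1 mouse but KO1.

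Markers of several leukocytes were lower in the same KO livers. Summed over the list, 9 T and NK cell markers were 24.6 to 27.4 CPM in WT and 5.47 to 8.62 CPM in KO, and 7 of the 9 fell. Recruited macrophage markers were 1048 to 1165 CPM in WT and 146 to 372 CPM in KO, with 4 of 6 lower. The list includes Spp1, which cholangiocytes also express and which is in the cholangiocyte list too. Trem2, Gpnmb, Cd9 and Itgax averaged 31.4, 58.5, 104 and 29.1 CPM in WT. Most of the sum in WT therefore came from the remaining genes of the list, Ccr2 and Spp1. Plasmacytoid dendritic cell markers were 2.52 to 3.52 CPM in WT and 0.810 to 2.16 CPM in KO, with 1 of 4 lower and 2 below the filter. Conventional dendritic cell markers were 21.9 to 24.6 and 13.3 to 18.9 CPM, B cell markers 4.88 to 5.90 and 1.91 to 4.30 CPM, and neutrophil markers 7.49 to 11.6 and 4.05 to 7.28 CPM, of which 2 of 5, 0 of 4 and 1 of 5 fell. Ly6g was at 0 in all but 1 library, and Klk1, Ncr1 and Retnlg each had at least 1 library at 0. The macrophage and Kupffer cell list was mixed, with a sum of 218 to 349 CPM in WT and 359 to 447 CPM in KO, and 3 of 8 higher and 2 lower. Clec4f, a Kupffer cell lectin, was 23.9, 8.80 and 13.9 CPM in the WT mice and 129, 137 and 65.9 CPM in the KO mice and rose, Cd68 and Csf1r fell, and Adgre1, which encodes F4/80, had every KO mouse below every WT mouse but did not pass (log2 fold change -0.72 ± 0.25, edgeR adjusted p = 0.0588). Hepatocyte markers were 49764 to 60911 CPM in WT and 61237 to 91792 CPM in KO with 1 of 7 higher, and endothelial markers 160 to 185 and 227 to 266 CPM with 2 of 6 higher. Cholangiocyte markers were 951 to 1181 CPM in WT and 128 to 245 CPM in KO, with 5 of 5 lower. Spp1 is counted both in this sum and in that of the recruited macrophages. For each of these 10 lists the 2 groups did not overlap. That gives p = 0.1 in a two-sided exact permutation test, the smallest p that 3 against 3 allows. Among all genes tested, every KO value lay below every WT value for 25.0% and above for 21.9%. Calls were lower for 16.5% of all genes tested and higher for 12.5%. Stellate cell markers overlapped, at 426 to 509 and 233 to 459 CPM (exact permutation p = 0.2), with 2 of 6 lower and 1 higher. The part of these cell types in the interferon-stimulated genes was not tested. Among the controls the macrophage and Kupffer cell sum was 349, 218 and 302 CPM in WT1, WT2 and WT3, the same order as in the type I genes. The neutrophil sum, at 11.6, 7.49 and 9.55 CPM, and the T and NK cell sum, at 27.4, 24.6 and 25.7 CPM, had that order too. So did the endothelial sum, at 185, 160 and 171 CPM, and the stellate cell sum, at 509, 426 and 489 CPM. The remaining lists, recruited macrophages and dendritic cells among them, did not have it, and 21.1% of all genes tested had it.

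**Figure D5:**
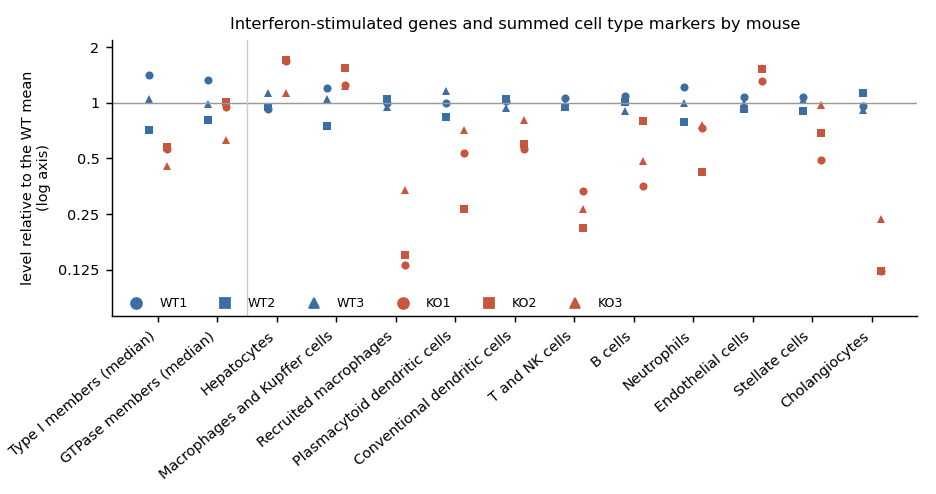
Level relative to the WT mean on a log axis (y) of the type I response genes and the GTPases (median over genes, left) and of the summed markers of each cell type (right) in each mouse. The KO mice lie below all controls for the type I genes but not for the GTPases, and below all controls for T and NK cells, at 5.47 to 8.62 CPM against 24.6 to 27.4 CPM. They also lie below for recruited macrophages, dendritic cells, B cells, neutrophils and cholangiocytes. For hepatocytes, macrophages and Kupffer cells, and endothelial cells they lie above all controls, and for stellate cells the groups overlap.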

How the data were processed

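Total RNA from livers of 3 WT and 3 KO mice was sequenced as paired-end libraries of the NEBNext Ultra kit. Per the submitters' processing notes and the study's methods, the authors trimmed reads with Trimmomatic 0.36, aligned them to GRCm38 (mm10) with ERCC sequences by STAR 2.5.2b and counted unique hits on genes (featureCounts of Subread 1.5.2). The authors deposited these read counts per gene without normalization. Whether the counting used strand is not given in the sources used here, and reads that fit several genes are left out, which lowers paralogs. Columns were mapped by their labels. The labels number the samples without naming animals, so p-values measure the spread between these samples. Each member had at least 45 counts in every library. No pair of libraries within a group was a duplicate, and pairs across the groups were not compared.

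Neither library sizes nor tests included the 92 ERCC entries. No row collected reads without a gene. Of the gene IDs, 259 had no entry in the GENCODE M21 annotation (GRCm38) and held 0.0116% of counts. Genes were filtered with filterByExpr, scaled by TMM and tested with the robust quasi-likelihood F test of edgeR 4.0.16 in R 4.3.3 (two-sided, all 6 samples, no covariate), and p-values were adjusted over 16089 genes by the Benjamini-Hochberg method, with calls at an adjusted p under 0.05. The code was tested on simulated data. CPM use TMM-scaled library sizes, and CPM per kb divide them by exon length. The members and all gene lists were chosen with earlier results of these data known. Every member was accounted for, and of each pathway list the up to 5 genes of largest absolute log2 fold change among those that passed were named, with Ifng, Ifnb1, Ifnar1, Ifnar2, Ifngr1, Ifngr2 and Socs1 always; 1 further gene of that rule is not reported here. Marker sums were compared by an exact permutation test. Alternatives were DESeq2 1.42.0, limma-voom (limma 3.58.1), library size without TMM, upper-quartile, DESeq2 and ERCC scaling, 2 other filters, no robust estimation, a block for the replicate number, and omission of each mouse in turn.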

Additional observations from a re-analysis of the deposited data

How the results depend on the processing

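The 39 genes were refitted under 16 alternatives, which gives 624 values. Of these, 552 kept their direction or were not called either way, and their side of the threshold, 37 lost and 33 gained a call, and 2 changed sign with a call on 1 side, Ifi35 at -0.41 without TMM and Irf2 at -0.20 with ERCC scaling. Outside the 39, Mavs turned to -0.014 and Dtx3l to -0.27 with ERCC scaling. Without TMM 30 members, 22 type I genes and 4923 of all genes were lower, 0 members and 539 of all genes were higher, and the GTPase median was -0.72. With ERCC scaling the type I median was -1.88 and the GTPase median -1.13, and 0 members and 107 of all genes were higher. Upper-quartile scaling gave 0 members higher, and DESeq2 gave 2 higher, 1 of them a GTPase. With 1 mouse left out, 9 to 21 members, 7 to 16 type I genes, 1 to 2 GTPases and 1621 to 3076 of all genes were lower, and 0 to 1 members, 0 to 1 GTPases and 805 to 2521 of all genes were higher. The type I median then ranged from -1.29 to -0.75 and the GTPase median from -0.48 to 0.024, above 0 without WT1. The cause of these shifts was not tested. The replicate number as a block gave 15 members lower and 2 higher, with 11 type I genes lower and 1 GTPase higher. The deviations of same-numbered WT and KO samples from their group means were hardly correlated (r = -0.0459, 0.0125 and -0.0766 across genes). Of the WT samples only WT2 correlated best with the KO sample of its own number. With so few samples per group, these correlations cannot decide whether the numbers pair the samples. At this depth interferon ligand RNA was at or near the floor, and the number of mice limits the precision of the rest.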
